A study of Mus musculus with 4 samples.

Results

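Transcripts of 6 genes of the bone marrow stromal niche, Cxcl12, Kitl, Lepr, Cxcl14, Gas6 and Vcam1, were followed through single bone marrow cells of C57BL/6 mice. They are 6 of 17507 genes in the tables, and they were chosen for their role and because the CD44+ and CD44- sorts were already known to differ in them. The difference between the sorts is therefore described below and not tested. Each cell was sorted as negative for CD51, a chain of the integrins that bind vitronectin, and the labels name such cells TNCs without saying what that stands for. They were sorted by the presence or absence of CD44, a hyaluronan receptor, and the series asks where marrow cells without CD45, the common leukocyte antigen, come from. The marrow of both sorts was digested with dispase at 1 mg/mL and collagenase IV at 2 mg/mL. The labels name no allele and no drug for either sort, and give no age or number of mice. Cells were read by SORT-seq, a plate method with 1 cell per well and a unique molecular identifier (UMI) on each transcript. Of 1536 wells on 4 plates, 343 held at least 1000 transcripts and were kept, 238 of the CD44+ sort and 105 of the CD44- sort.

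Stromal cells of the marrow hold blood stem and progenitor cells in place through secreted and surface proteins. CXCL12 is a chemokine that retains haematopoietic cells through the receptor CXCR4, and stem cell factor, the product of Kitl, maintains them through the receptor KIT. The leptin receptor, Lepr, marks the perivascular stromal cells that are the main source of both in adult marrow. VCAM1 is an adhesion protein that binds the integrin made of the Itga4 and Itgb1 chains, GAS6 is a ligand of the TAM receptor kinases Axl, Mertk and Tyro3, and CXCL14 is a chemokine whose receptor use is less settled.

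The 6 genes lie apart from each other, on chromosomes 6 (Cxcl12, chr6:117168535-117181367, plus strand), 10 (Kitl, chr10:100015630-100100416, plus strand), 4 (Lepr, chr4:101717404-101815352, plus strand), 13 (Cxcl14, chr13:56288643-56296551, minus strand), 8 (Gas6, chr8:13465374-13494490, minus strand) and 3 (Vcam1, chr3:116109949-116129688, minus strand) of GRCm38 in the GENCODE vM21 annotation. Gas6 shares exonic bases with Tmem255b on the other strand, and Vcam1 with the antisense gene Gm43109. The use of strand in counting is not given in the sources used here, so reads of such pairs cannot be told apart; Tmem255b had 1 transcript in the kept wells.

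Because the members were found together in the same wells, upstream bases are shown for 3 of them. These are the gene with the most transcripts, the one that varied most between wells, and one whose levels followed those of Cxcl12. The bases are RefSeq promoter windows of GRCm38.p6, 5′ to 3′ along the gene, at chr6:117168285-117168534 (plus strand), chr13:56296552-56296801 (minus strand) and chr8:13494536-13494785 (minus strand). The windows of Cxcl12 and Cxcl14 border the first annotated exon. That of Gas6 stops at 13494536, short of the first annotated base of the gene at 13494490. Capitals mark the GC box GGGCGG on either strand.
Cxcl12: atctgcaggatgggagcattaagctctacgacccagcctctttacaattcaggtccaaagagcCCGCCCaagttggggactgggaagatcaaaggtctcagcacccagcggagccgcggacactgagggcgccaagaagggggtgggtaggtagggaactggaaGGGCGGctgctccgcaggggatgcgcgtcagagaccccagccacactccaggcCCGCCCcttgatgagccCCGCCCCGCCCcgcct
Cxcl14: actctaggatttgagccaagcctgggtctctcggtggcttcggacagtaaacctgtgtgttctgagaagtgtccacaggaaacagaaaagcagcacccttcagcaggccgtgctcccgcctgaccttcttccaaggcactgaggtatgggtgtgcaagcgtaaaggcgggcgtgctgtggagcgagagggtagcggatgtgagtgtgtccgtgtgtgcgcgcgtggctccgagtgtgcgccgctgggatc
Gas6: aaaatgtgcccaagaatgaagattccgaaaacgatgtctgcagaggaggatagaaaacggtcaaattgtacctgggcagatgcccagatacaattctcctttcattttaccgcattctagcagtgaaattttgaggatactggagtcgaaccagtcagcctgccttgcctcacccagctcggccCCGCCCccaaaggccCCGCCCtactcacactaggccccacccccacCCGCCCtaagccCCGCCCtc
The GC box, bound by SP-family factors and added after the sequences were seen, occurred 5 times in the Cxcl12 window and 4 times in that of Gas6, and 0 times in that of Cxcl14. Among 32851 RefSeq promoters, 32.7% held it in their 250 bases before the start. Other motifs were looked for on both strands in these windows and in the 247 bases before Lepr and the 59 bases before Kitl: the RUNX core TGTGGT (in 14% of promoters), the hypoxia core ACGTG (16.6%), the forkhead site GTAAACA (3.17%) and the TATA box TATAAA (12.4%). None of these 4 occurred in the 5 windows, and the GC box was absent from those of Lepr and Kitl too. This says only that the letters are not there. Vcam1 had no window in the promoter set used and was not searched.

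Kept wells formed 3 libraries per sort. Replicate 1 of each sort was a plate of its own, and replicates 2 and 3 were the upper and lower rows of plates that held both sorts. The CD44+ libraries had 56, 95 and 87 wells and 149707, 1118722 and 1707318 transcripts. The CD44- libraries had 44, 24 and 37 wells and 97041, 101367 and 158763 transcripts. Median transcripts per well ranged from 1994 to 11225 in CD44+ and from 1795 to 2544 in CD44-, and 102 wells were low in quality, between 4.17% and 46.4% of a library. The 4 plates use the same 384 well barcodes by design. Cd44 itself, the gene behind the sort, had 93.5, 284 and 225 CPM (a transcript count scaled to the same total in every library) in CD44+ and 124, 345 and 113 in CD44-, so its mRNA levels overlapped between the sorts. Ptprc, which encodes CD45, was found in every library, at 37.5 to 146 CPM in CD44+ and 94.5 to 356 in CD44-, although the series is about cells without CD45. Itgav, which encodes CD51, was in every library too, though all cells were sorted as negative for CD51. It had 6.68, 17 and 6.45 CPM in CD44+ (1, 19 and 11 transcripts) and 20.6, 29.6 and 120 CPM in CD44- (2, 3 and 19 transcripts).

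All 6 genes were higher in each CD44- library than in any CD44+ library. Of 2463 genes with enough counts to test, 9.22% were ordered in this way, and since the genes were chosen on this contrast, nothing is read from that order. Levels are CPM of a summed library, so they are set within a gene and do not depend on the number of wells. Because the tag is at one end of each transcript, they were not scaled by gene length.

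Cxcl12, the CXCR4 ligand, had 53.4, 750 and 489 CPM in CD44+ replicates 1, 2 and 3, and 3605, 7604 and 19940 CPM in the CD44- replicates. The means were 431 ± 352 and 10380 ± 8514 CPM (SD, n = 3 each), a ratio of 24.1.
Kitl, the stem cell factor gene, stood at 13.4, 52.8 and 31.2 CPM in CD44+ against 124, 807 and 783 CPM in CD44-. Its means of 32.5 ± 19.8 and 571 ± 387 CPM differed 17.6-fold. The CD44+ replicate 1 value rests on 2 transcripts, with a counting interval of 1.62 to 48.3 CPM.
Cxcl14 showed the largest ratio of the 6 genes, 42.8-fold, with 27 ± 32 against 1137 ± 1203 CPM. It was not detected in CD44+ replicate 1, where a count of 0, taken to allow up to 3 transcripts, leaves up to 20.04 CPM, and stood at 62.7 and 17 CPM in CD44+ replicates 2 and 3. The CD44- libraries had 309, 585 and 2516 CPM.
Gas6, the TAM receptor ligand, had 40.1, 104 and 45.96 CPM in CD44+ and 393, 685 and 2273 CPM in CD44-, with means of 63.4 ± 35.4 and 1117 ± 1012 CPM and a ratio of 17.6.
Lepr, the receptor among the members, had the smallest ratio. Its levels were 26.7, 51.9 and 84.9 CPM in CD44+ and 186, 347 and 833 CPM in CD44-, and the means of 54.5 ± 29.2 and 455 ± 337 CPM differed 8.35-fold.
Vcam1, the adhesion gene, had the lowest mean CPM of the 6 genes in both sorts, though not in every library. It had 6.68, 27.7 and 18.2 CPM in CD44+ and 165, 178 and 827 CPM in CD44-, with means of 17.5 ± 10.5 and 390 ± 379 CPM and a ratio of 22.3.

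**Figure D1:**
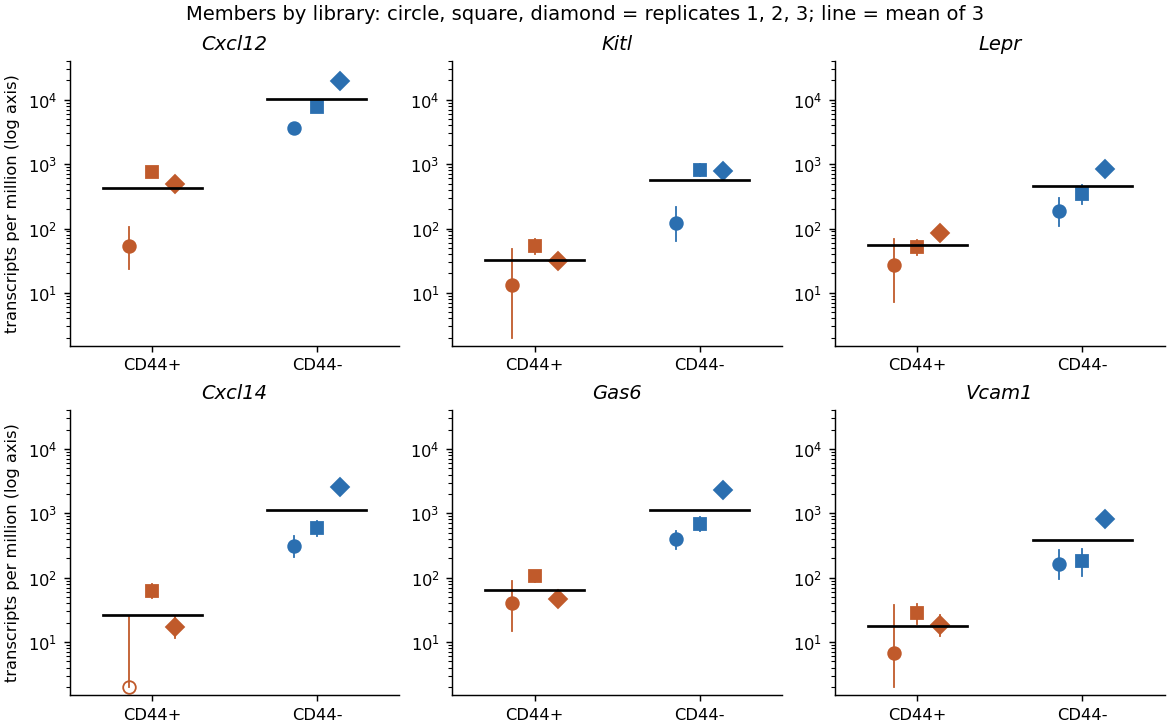
CPM (log axis) of each gene in the 6 libraries; circles, squares and diamonds are replicates 1, 2 and 3, thin lines are 95% counting intervals, the black line is the mean of 3, and the open circle at the floor of the axis is a library with 0 transcripts. The 3 CD44- points sit above the 3 CD44+ points for each gene.

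The size of the ratio depended on single libraries, for most members CD44- replicate 3 and CD44+ replicate 2. Without CD44- replicate 3 the ratios were 13.01 for Cxcl12, 14.3 for Kitl, 4.88 for Lepr, 16.8 for Cxcl14, 8.50 for Gas6 and 9.78 for Vcam1. Without CD44+ replicate 2 they were 38.3, 25.6, 8.16, 134, 25.96 and 31.4 in the same order. For Lepr, however, the highest ratio (11.6) came without CD44+ replicate 3, and for Kitl the lowest (13.6) came without CD44+ replicate 1. Within the replicate 3 plate Cxcl14 differed 148-fold, and within the replicate 2 plate 9.33-fold. Since CD44+ wells held more transcripts, transcripts per well differed less than CPM: on the replicate 2 plate they were 3.64-fold higher in CD44- for Cxcl12 and between 2.3 and 5.48-fold higher for the other members, and on the replicate 3 plate 2.15-fold higher for Lepr and 32.4-fold higher for Cxcl14. On the replicate 1 plates the per-well ratio was 55.7 for Cxcl12, 5.73 for Lepr and 20.4 for Vcam1.

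The share of wells with a transcript was higher on average in CD44-, with more overlap and not in every pair. At least 1 Cxcl12 transcript was found in 8.93%, 31.6% and 52.9% of wells in the CD44+ libraries and in 36.4%, 66.7% and 70.3% of those in the CD44- libraries, so these ranges overlapped. With each well thinned to 1000 transcripts, the shares were 7.14%, 17.9% and 13.8% in CD44+ and 22.7%, 47.8% and 62.2% in CD44-, which did not overlap. The thinned means were 12.9% ± 5.43 and 44.2% ± 19.96 (SD, n = 3 each), against unthinned means of 31.1% ± 21.98 and 57.8% ± 18.6. The other members were found in far fewer wells. Their unthinned means in CD44+ and CD44- were 5.91% ± 2.43 and 16.5% ± 11.6 for Kitl, 14.1% ± 6.10 and 20.6% ± 13.6 for Lepr, and 7.05% ± 6.90 and 29.3% ± 11.2 for Cxcl14. Those of Gas6 were 11.7% ± 1.83 and 32.8% ± 18.9, and those of Vcam1 6.15% ± 4.28 and 15.7% ± 12.1. On the replicate 2 plate the share for Lepr was lower in CD44- (8.33%) than in CD44+ (16.8%), and that for Kitl was 8.33% against 8.42%; thinned, they were 4.35% against 3.16% for Lepr and 4.35% against 4.21% for Kitl. Single-library shares rest on few wells: Kitl and Lepr were each found in 2 of 24 wells of CD44- replicate 2, a share of 8.33% with an exact binomial interval of 1.03% to 27%. Intervals here cover counting error only. Near the limit for keeping a well, the 14 wells with 1000 to 1100 transcripts held 7 Cxcl12, 2 Kitl and 2 Gas6 transcripts, and the 22 wells with 900 to 1000 held 7 Cxcl12 and 1 each of Kitl, Lepr and Gas6.

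A handful of wells held most of each gene. The 10 highest wells of 343 contained 73.3% of all Cxcl12 transcripts, 78.9% of Kitl, 74.5% of Lepr, 83.7% of Cxcl14, 70.8% of Gas6 and 70.7% of Vcam1. Of 139 wells with Cxcl12, 56 had a single transcript and 26 had 10 or more. In the CD44+ sort 6 wells held 90% of Cxcl12 and in the CD44- sort 12 wells did. Lepr had the longest tail in CD44+: 1 well held 60.8% of its transcripts there, while 16 wells were needed for 90%. Within libraries the concentration went further. In CD44+ replicate 3, 1 well gave 88.97% of the Cxcl12, 90.6% of the Kitl and 86.9% of the Lepr, and 1 well gave 91.8%, 98.8% and 97.2% of those in CD44- replicate 2. The highest well of CD44- replicate 3, in contrast, held 19.9% of its Cxcl12 and 21.8% of its Kitl.

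**Figure D2:**
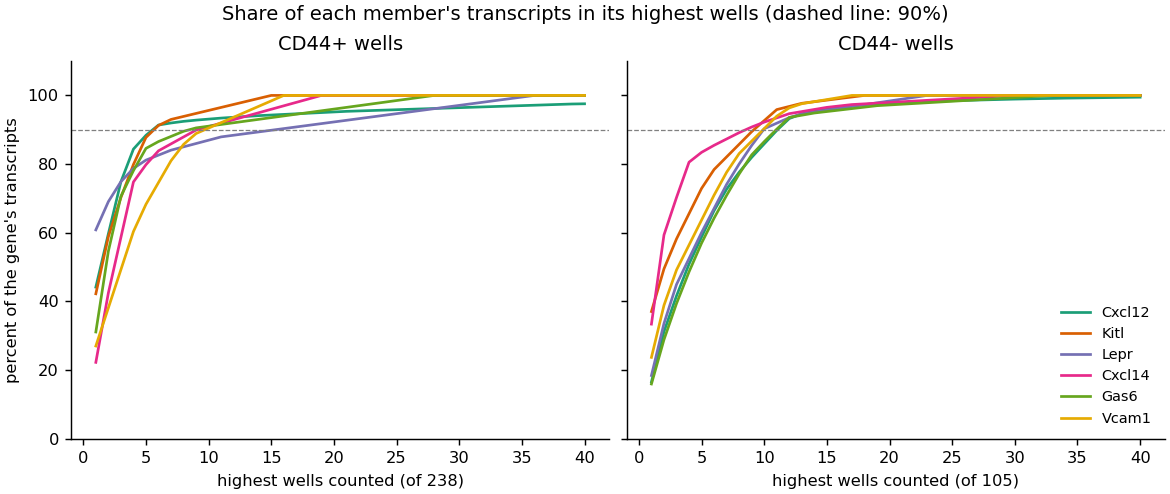
Cumulative percent of each gene's transcripts (vertical axis) against the number of highest wells counted (horizontal axis), for the 238 CD44+ wells and the 105 CD44- wells; each line is 1 gene and the dashed line is 90%. The lines reach 90% within 6 to 16 wells in CD44+ and 9 to 12 wells in CD44-.

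To see what else these wells held, wells were grouped by how many of 15 other stromal markers they contained (collagens Col1a1, Col1a2 and Col3a1, matrix genes Sparc, Dcn, Lum, Bgn, Fstl1, Islr, Igfbp7 and Mmp2, the receptors Pdgfra and Pdgfrb, Cdh11 and Serpinh1). None of the 6 members is on that list. No stromal marker was found in 211 wells, 1 to 3 in 102 wells, 4 to 9 in 14 wells and 10 or more in 16 wells; the limit of 10 was set after the data were seen. These 16 wells contained all 6 members without exception, and they were also the 16 wells with the most Cxcl12. They held 90.8% of all Cxcl12 transcripts, 90.97% of Kitl, 85.7% of Lepr, 90.5% of Cxcl14, 88.9% of Gas6 and 85.1% of Vcam1. Ptprc was at 0 in 14 of 16 and at 1 transcript in each of the other two, and no pan-haematopoietic marker was in more than 3 of them. Of 9 endothelial markers, Cdh5, Emcn, Tek, Egfl7, Stab2, Tie1 and Cldn5 were at 0 in all 16, Pecam1 was in 1 and Eng in 6 (0.694 per 10000, against 0.564 in the wells with fewer than 4 stromal markers). Of 7 pericyte and smooth muscle markers, Acta2, Tagln, Rgs5, Mcam and Cspg4 were at 0, whereas Notch3 was in 12 and Mylk in 15 of the 16, against 9 and 8 of 313. Of 5 osteoblast markers, the bone matrix gene Ibsp was in 13 of 16, Alpl and Col11a1 in 1 each, and Sp7 and Dmp1 in 0. By library, the summed level of the stromal list was 114 to 522 CPM in CD44+ and 2073 to 11260 CPM in CD44-, that of 5 osteoblast markers 20.04 to 110 and 485 to 1410 CPM, and that of 7 pericyte and smooth muscle markers 24.7 to 27.7 and 92.7 to 517 CPM. Lists of blood lineages overlapped between the sorts, with 893 to 2837 and 1633 to 3871 CPM for pan-haematopoietic markers, 4647 to 12080 and 1222 to 34790 CPM for neutrophil lineage markers, 185 to 3065 and 1804 to 2697 CPM for B lineage markers, and 4889 to 9734 and 2797 to 35730 CPM for erythroid markers. So did macrophage markers (88 to 180 and 145 to 247 CPM), megakaryocyte markers (13 to 28 and 10 to 186 CPM), endothelial markers (60 to 102 and 59 to 88 CPM) and Schwann cell markers (60 to 81 and 69 to 82 CPM). Within same-numbered pairs the pan-haematopoietic list was higher in CD44- in 3 of 3, and the fit blocked on the pair called 3 of its 9 tested genes lower in CD44+ (edgeR, adjusted p = 0.0412 for Ptprc, 0.0194 for Cd53 and 0.0318 for Cd52). The blocked fit called 4.59% of all genes tested lower. Without the block, 0 of these 9 were called (edgeR, adjusted p = 0.341, 0.284 and 0.2665 in the same order). The blocked fit called 4 of 9 tested erythroid genes, Klf1, Car1, Car2 and Rhd, higher in CD44+, against 1.75% of all genes tested. Of the rest, Beta-s, Alas2 and Slc4a1 were lower in CD44+ without a call (log2 difference -1.72, -1.6 and -1.1 with the block). Without the block, 0 of the 9 were called. Klf1 and Rhd both had 51.5 and 39.5 CPM in CD44- replicates 1 and 2, and at least 143.5 CPM in each CD44+ library. These 2 genes entered the test through CD44+, so the filter favoured their direction. Nothing is read from the number of erythroid genes called. The part of these lists in the difference between the sorts was not tested.

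The 16 wells were unevenly spread over libraries. CD44+ replicates 1, 2 and 3 had 0 of 56, 3 of 95 and 1 of 87, or 0%, 3.16% and 1.15%, where a count of 0, by the same rule of 3 counts, allows a share of up to 5.36% in replicate 1 (the exact binomial interval reaches 6.38%). CD44- replicates had 1 of 44, 1 of 24 and 10 of 37, or 2.27%, 4.17% and 27.03%. Only the last of these shares had an exact binomial interval, 13.8% to 44.1%, whose lower end lay above the other 5 shares. The ratios between the sorts were smaller without such wells. Without the 30 wells that had 4 or more stromal markers, the ratio of mean CPM in CD44- to that in CD44+ was 10.05 for Cxcl12, 20.5 for Cxcl14 and 4.98 for Gas6, and 1.57 for Lepr and 1.09 for Vcam1. For Kitl it turned to 0.623, which rests on 1 transcript in all of CD44-, with none in CD44- replicates 1 and 2. Other ratios rest on few transcripts too. CD44- wells with 0 and with 1 to 3 stromal markers held 4 and 6 Cxcl14, 4 and 3 Lepr, and 1 and 1 Vcam1 transcripts. In CD44+ wells Cxcl14 had 8 and 3.

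**Figure D3:**
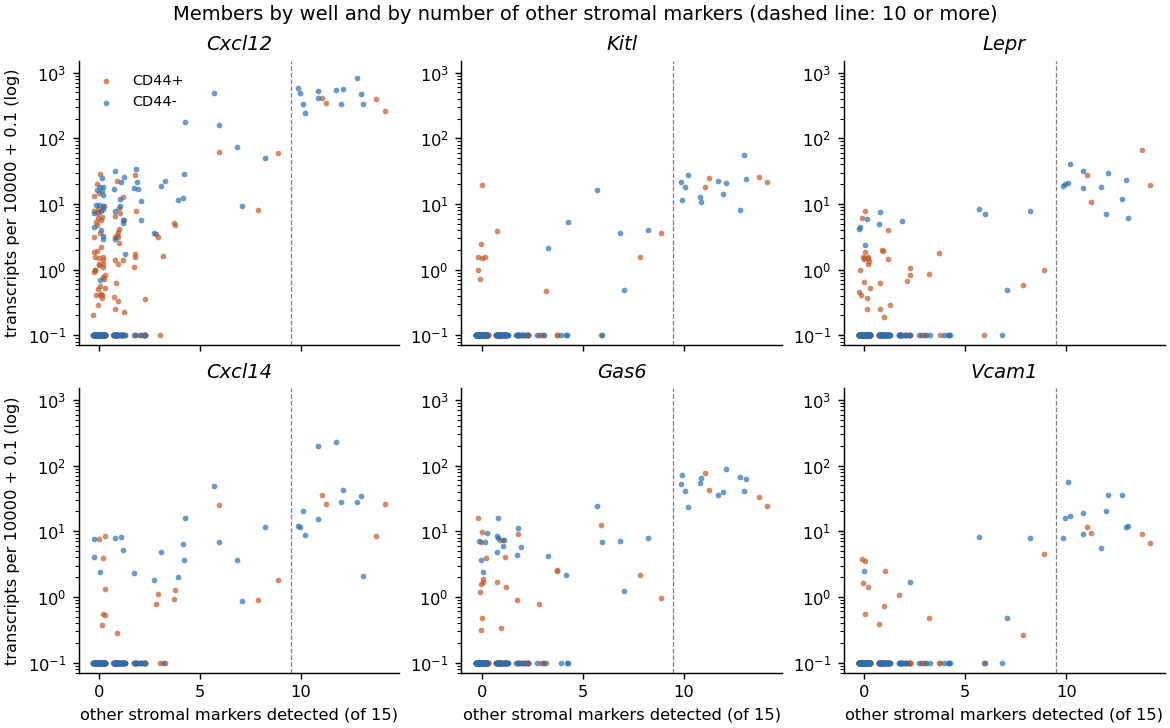
Transcripts of each gene per 10000 of a well, plus 0.1, on a log axis, against the number of other stromal markers found in that well (of 15, with sideways jitter); each point is 1 of 343 wells, coloured by sort, and points at 0.1 have no transcript. The 16 wells right of the dashed line hold all 6 genes, and CD44+ and CD44- wells lie among each other there.

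Inside these wells the levels of the sorts overlapped. The median Cxcl12 level was 367 per 10000 transcripts in the 4 CD44+ wells (261 to 414) and 483 in the 12 CD44- wells (241 to 831). For Kitl the medians were 23.1 and 19.6, for Lepr 23.7 and 19.3, for Cxcl14 26.3 and 23.98, for Gas6 37.6 and 52.6, and for Vcam1 9.09 and 16.5. This held for the ranges of all 6 genes. Of the 4 CD44+ wells, 3 came from 1 library and 10 of the 12 CD44- wells from another, so wells are not replicates here and no test was made.

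Within each library that had wells with 4 or more stromal markers, these wells could be set against the other wells of the same plate and sort. Cxcl12 was higher in the marker wells in 5 of 5 libraries, with 84.4 against 0.342 per 10000 in CD44+ replicate 2, 158 against 0.47 in CD44+ replicate 3, 251 against 1.67 in CD44- replicate 1, 146 against 5.37 in CD44- replicate 2 and 412 against 6.49 in CD44- replicate 3. The mean log2 difference was 5.92 ± 0.88 (SD, n = 5 libraries, log2 of the level plus 1). The other 5 members were also higher in 5 of 5 libraries, with mean log2 differences of 3.51 ± 0.54 for Kitl, 3.30 ± 0.93 for Lepr, 3.48 ± 1.12 for Cxcl14, 3.84 ± 0.73 for Gas6 and 2.69 ± 0.99 for Vcam1. These are descriptions: the members were known to be concentrated in few wells, and an exact test over 5 libraries cannot pass 0.05, so none is given.

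The members varied among themselves across the 16 wells. Gas6 and Cxcl12 were the steadiest, with coefficients of variation of 0.374 and 0.336. Gas6 ranged from 22.97 to 87.2 per 10000 (median 46.9) and Cxcl12 from 241 to 831 (median 411). Kitl ranged from 7.86 to 54.8 (median 21.1), Lepr from 5.95 to 66.3 (median 19.9) and Vcam1 from 5.54 to 56.8 (median 11.7). Cxcl14 varied most, with a coefficient of variation of 1.47. In CD44- replicate 3, 2 wells had 226 and 199 Cxcl14 transcripts per 10000, against 1.98 to 42.02 in the other 14 wells. Per 100 Cxcl12 transcripts, Cxcl14 ranged from 0.598 to 41.04 with a median of 6.58. The well with the lowest Cxcl14, 1 transcript of 5046, had 332 Cxcl12 and 61.6 Gas6 transcripts per 10000. The lowest counts in a well were 2 for Kitl and 3 for Lepr, but 149 for Cxcl12, so counting error weighs unequally on these spreads. The well with the most Lepr (66.3) and the well with the most Kitl (54.8) were single wells of CD44+ replicate 3 and CD44- replicate 2. Across the 16 wells the Pearson correlation of log levels was 0.62 between Cxcl12 and Gas6 and -0.46 between Kitl and Gas6. Wells share library and depth, and these values are descriptions.

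**Figure D4:**
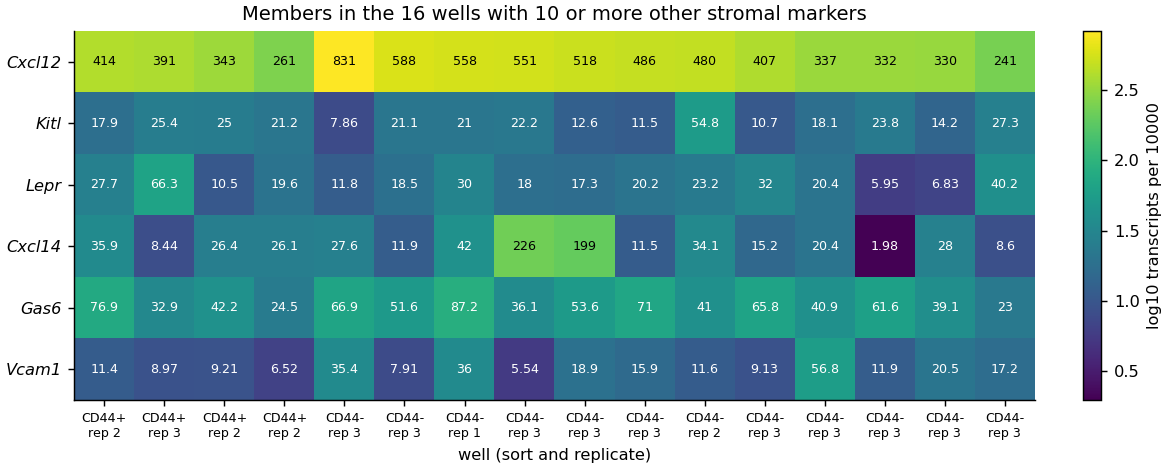
Transcripts per 10000 of each gene (rows, printed in the cells, colour on a log10 scale) in the 16 wells with 10 or more other stromal markers (columns, by sort and then by falling Cxcl12). Cxcl14 ranges from 1.98 to 226, wider than Cxcl12, which ranges from 241 to 831.

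Of 343 wells, 159 held no member, 101 held 1, 44 held 2, 13 held 3, 5 held 4, 0 held 5 and 21 held all 6, so most wells with any member held a partial set. All 21 wells with the full set had 4 or more stromal markers, and 6 were CD44+ and 15 CD44-. Of 33 wells with Kitl, 31 (93.9%) also had Cxcl12, and of 33 with Vcam1, 28 (84.8%) did. For Cxcl14 the count was 40 of 49 wells (81.6%), for Gas6 47 of 61 (77.05%) and for Lepr 40 of 59 (67.8%). Cxcl12 itself was in 139 of 343 wells. Among the 313 wells with fewer than 4 stromal markers the shares with Cxcl12 were lower. They were 80% for Kitl (8 wells with both), 58.3% for Vcam1 (7), 52.6% for Cxcl14 (10), 58.8% for Gas6 (20) and 47.2% for Lepr (17). Of wells with no stromal marker 28.4% held Cxcl12, and of those with 1 to 3 markers 48% did. In the other direction, 31 of 139 wells with Cxcl12 (22.3%) had Kitl. With at least 2 transcripts asked of each gene, 20 of 20 Kitl wells had Cxcl12 and 20 of 24 Lepr wells did (83.3%). Lepr was found without Cxcl12 in 19 wells, Gas6 in 14, Cxcl14 in 9, Vcam1 in 5 and Kitl in 2.

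In 5 wells all 6 members came with 4 to 9 stromal markers, and in 4 of these the neutrophil lineage list took the largest share of marker transcripts. A CD44+ replicate 2 well of 62249 transcripts held 50.3 Cxcl12, 9.01 Kitl, 13.02 Gas6 and 5 Cxcl14 transcripts together with 8.01 of Ptprc and all 10 pan-haematopoietic markers. Another well of that library, of 11512 transcripts, held 67.6 Cxcl12 transcripts with 10.01 of Ptprc. The fifth was a CD44- replicate 1 well of 1230 transcripts with 59.4 Cxcl12, no pan-haematopoietic marker and 483 Cxcl12 per 10000, in the range of the 16 wells. Whether wells with both sets held more than 1 cell was not tested.

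Among wells with fewer than 4 stromal markers, the most transcripts of a member in a well were 11.01 for Cxcl12, 7.01 for Vcam1, 5 for Lepr, 3 for Gas6 and 2 each for Kitl and Cxcl14. Among the 313 wells with fewer than 4 stromal markers, Cxcl12 was found in 47 of 108 wells whose largest marker list was erythroid (43.5%, median 8007 transcripts per well), 35 of 79 neutrophil lineage wells (44.3%, median 2133), 13 of 53 B lineage wells (24.5%, median 4219) and 14 of 72 wells with fewer than 3 markers of any list (19.4%, median 1740). After thinning to 1000 transcripts these shares were 13.9%, 28.2%, 11.3% and 9.72%. Kitl was found in 2.78%, 5.06%, 1.89% and 2.78% of the same 4 groups and Vcam1 in 3.70%, 5.06%, 5.66% and 1.39%. Lepr was found in 17.6%, 6.33%, 9.43% and 8.33%, and Gas6 in 14.8%, 11.4%, 3.77% and 9.72%. Depth and library differ between these groups, and no expression is read from these shares. In wells with no stromal marker the level of Cxcl12 was 0.41 per 10000 in CD44+ and 2.79 in CD44-, with 43 of 163 and 17 of 48 wells positive.

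**Figure D5:**
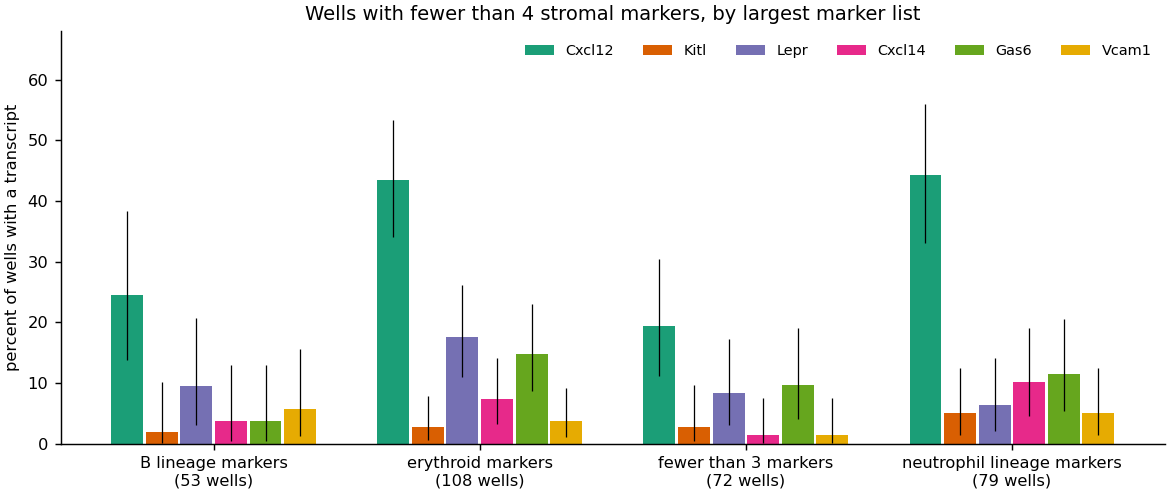
Percent of wells with at least 1 transcript of each gene (bars, with 95% exact binomial intervals) among wells with fewer than 4 stromal markers, grouped by the marker list that takes the largest share; 1 well with macrophage markers is not drawn. Cxcl12 is found in 19.4% to 44.3% of wells in the 4 groups and Kitl in 1.89% to 5.06%.

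The proportions of the members to each other were set side by side for these wells and the 16. Per 100 Cxcl12 transcripts, wells with no stromal marker held 7.77 Kitl, 23.3 Lepr, 11.7 Cxcl14, 16.5 Gas6 and 10.7 Vcam1 transcripts, and the 16 wells held 5.58, 6.21, 9.82, 10.99 and 3.59. In wells with 1 to 3 stromal markers they were 2.66, 18.6, 7.96, 19.5 and 11.5, so Kitl lay below the 16 wells there and above them in wells with no marker. The counts behind the wells with no marker are small, with 8 Kitl, 24 Lepr, 12 Cxcl14, 17 Gas6 and 11 Vcam1 transcripts, and no order is read from them. The most Vcam1 outside the marker wells, 7.01 transcripts, came from a CD44+ replicate 2 well of 111333 transcripts whose largest marker list was erythroid and which also held 325.6 transcripts of pan-haematopoietic and 42.04 of macrophage markers, and the most Lepr, 5, from another well of that library with erythroid markers. The part of these wells in the ratio was not tested.

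The partners of the members were read from lists by role, in edgeR's quasi-likelihood test over all 2463 genes. That test called 24 genes lower in CD44+ (0.974% of those tested) and 1 higher (0.0406%). Same-numbered libraries were taken as pairs, and a fit blocked on the pair called 113 lower (4.59%) and 43 higher (1.75%). The median log2 difference of all genes tested was -0.04, and negative values mean lower in CD44+. Of 58 genes on the role lists that the tables hold, 15 could be tested. A gene entered the test with enough counts in at least 3 libraries, so it could enter through 1 sort alone.

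No receptor of a niche factor passed the test. Of 10 receptors and ligands found, 4 were tested and 0 were called in either fit, with a median log2 difference of -0.16. Cxcr4, the CXCL12 receptor, had 73.5, 171 and 92.6 CPM in CD44+ and 82.4, 257 and 120 CPM in CD44- (log2 difference -0.50, SE 0.47, adjusted p = 0.586). Kit, the receptor of stem cell factor, had 107, 84.2 and 112 CPM against 20.6, 49.3 and 170 CPM (log2 difference 0.19, SE 0.59, adjusted p = 0.892). Levels of both overlapped between the sorts. For the chains of the VCAM1 receptor the log2 differences were 0.23 for Itga4 (SE 0.60, adjusted p = 0.865) and -1.22 for Itgb1 (SE 0.47, adjusted p = 0.214). By wells, Cxcr4 was in 3 of the 16 wells and in 118 of 313 wells with fewer than 4 stromal markers (37.7%), Itga4 in 4 and in 205 (65.5%), and Itgb1, which pairs with many alpha chains, in 15 and in 108 (34.5%). Kit was in 2 of the 16 wells and in 65 others (20.8%), at 1.16 and 1.00 transcripts per 10000. None of these differences was tested. Axl, a GAS6 receptor singled out after its values were seen, was too sparse to test, with 9 of the 16 wells and 7 of 313 others.

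Of 20 other secreted niche factors on the list, 3 were tested, 1 was called lower and 0 higher, and the median log2 difference was -3.94. All 3 had at most 40.3 CPM in any CD44+ library and at least 72.1 CPM in each CD44- library. They thus entered the test through CD44- alone, so the filter set their direction. Nothing is read from the median or from the direction of the calls below. Csf1, the macrophage colony-stimulating factor, had 26.7, 26.8 and 16.4 CPM in CD44+ and 175, 287 and 505 CPM in CD44-, with no overlap (log2 difference -3.94, SE 0.49, adjusted p = 0.0268). Its call was lost when any 1 library other than CD44- replicate 1 was left out, with adjusted p up to 0.189 (without CD44+ replicate 3). Spp1, which encodes osteopontin, had a log2 difference of -4.12 (adjusted p = 0.0813, and 0.0232 with the block), and Vegfa, a vascular growth factor, -2.67 (0.0658, and 0.0281 with the block). The block thus called all 3 lower. Csf1 was found in 16 of the 16 wells and in 11 of the 313, Spp1 in 14 and in 10, and Bmp4, a bone morphogenetic protein too sparse to test, in 15 and in 5. Tgfb1 was in 1 of the 16 wells and in 59 of the 313.

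Transcription factors of niche cells gave 1 call in 3 tested of 13. All 3 had at most 61.8 CPM in any CD44+ library and at least 82.4 CPM in each CD44- library. Here too they entered the test through CD44- alone, and the filter set their direction. Nothing is read from the direction of their calls. Runx2, a factor of the bone lineage, had 0, 20.6 and 10.5 CPM in CD44+ and 103, 118 and 258 CPM in CD44- (log2 difference -3.77, SE 0.62, adjusted p = 0.041); its call was lost in 5 of the 6 fits that left out 1 library, with adjusted p up to 0.235. Ebf3, which keeps the niche open against bone formation, had 0, 61.8 and 29.95 CPM in CD44+ and 124, 376 and 713 CPM in CD44- (log2 difference -3.63, adjusted p = 0.0813, and 0.00299 with the block). Epas1, a hypoxia-inducible factor, had a log2 difference of -4.16 (adjusted p = 0.0539, and 0.000824 with the block). Ebf3 and Foxc1, a forkhead factor of the niche, were found in 16 of 16 wells and in 23 and 4 of 313; Epas1 was found in 15 and 8, and Ebf1, also a B cell factor, in 12 and 32. Without the 30 wells that had 4 or more stromal markers, none of Csf1, Runx2, Ebf3, Epas1, Spp1 and Vegfa had enough counts to test. The 16 wells held 155 of 188 Csf1 transcripts and 67.1 of 104 of Runx2, but 27.02 of 76.02 of Vegfa, of which 42 lay in the 313 wells.

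Leptin receptor signalling had 2 tested genes of 7 and 0 calls; the block called 1. Stat3, the transcription factor downstream of Lepr, had 0, 58.1 and 29.3 CPM in CD44+ and 92.7, 128 and 258 CPM in CD44- (log2 difference -2.38, adjusted p = 0.132, and 0.036 with the block). Stat3 too entered the test through CD44- alone, so the filter set its direction. It was found in 15 of the 16 wells and in 56 of 313 (17.9%). Ptpn1, a phosphatase that dampens the receptor, had -0.85 (adjusted p = 0.54). Jak2, the kinase of the receptor, and Ptpn11 were not testable and were each found in 8 of the 16 wells, and in 59 and 69 of the 313. Proteases that can cleave niche factors had 3 tested genes of 8 and 0 calls in either fit, with a median log2 difference of 0.35. Elane and Ctsg, granule proteases of neutrophils that are also on that lineage's marker list, had log2 differences of -0.50 (adjusted p = 0.762, and 0.863 with the block) and 0.77 (adjusted p = 0.634), and Adam10, a sheddase, 0.35 (adjusted p = 0.628). Mmp14, a membrane protease too sparse to test, was found in 13 of the 16 wells and in 45 of the 313.

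For each member, the 5 genes most like it over the 343 wells were listed. Likeness was the Pearson correlation of log2(transcripts per 10000 + 1) over wells, among 10590 genes. For Cxcl12 they were Col1a2 (0.81), Gpx3, Sparc, Gdpd2 and Serping1 (0.76), and for Kitl Fbln5 (0.89), Fstl1, Il34, Foxc1 and Ppap2b (0.84). For Lepr they were Pmp22, Serpinh1, Tnc, Fbln5 and Sparc, all at 0.79. Cxcl14 was most like Fstl1 (0.82), Fbln5, Gpx3, Sparc and Bgn (0.79), and Gas6 most like Gpx3 (0.79), Fbln5, Adipoq, Col1a2 and Sparc (0.78). For Vcam1 they were Fbln5 (0.88), Serpinh1, Esm1, Pdgfrb and Adipoq (0.86). Fbln5, which encodes the elastic fibre protein fibulin-5, stood among the 5 nearest genes of 5 members, the exception being Cxcl12. Adipoq, which encodes adiponectin, and Fbln5 were each found in 16 of the 16 wells, and in 25 and 28 wells in all. Such correlations depend on which wells enter: between Cxcl12 and Vcam1 it was 0.70 over all wells, 0.17 within the 16 wells and 0.0012 over the 313 wells with fewer than 4 stromal markers.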

How the data were processed

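Single marrow cells on 4 plates (2 with 1 sort, 2 with CD44+ in rows A to H and CD44- in rows I to P) were read with 75 bp paired ends, per the labels' protocols. The authors deposited estimated counts of transcripts, derived from UMIs, for each gene in each well and not scaled between wells. BWA 0.7.15 and build mm10 were used, per the submitters' processing notes; the read counter, its annotation and its strand setting are not given in these sources. The values follow a correction for UMI saturation with 4096 UMIs: undone, 100% of 796931 values came out whole within 0.011. No label states this step, so it is inferred. Plain counts had been assumed, and sums were rounded to whole numbers for the tests. Well numbers were read in row order, which the labels do not state. Spike-ins in columns 22 to 24 were 42.2 and 59.4 times lower than elsewhere on the shared plates under that order, but only 1.22 and 1.35 times lower on the plates of replicate 1, so the order of those plates was not checked by this.

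Wells with at least 1000 transcripts were kept and summed per plate and sort into 3 libraries per sort, of 97041 to 1707318 transcripts. A well was low in quality with 10% or more Kcnq1ot1 or 50% or more mitochondrial transcripts. No doublet caller was run, since the labels describe sorted single cells. The libraries were compared with edgeR 4.0.16 (TMM, filterByExpr, quasi-likelihood test, two-sided, Benjamini-Hochberg adjusted over 2463 genes, threshold 0.05), checked on simulated data; DESeq2 1.42.0 was an alternative. An SE in edgeR is the log2 difference divided by the root of F. The labels do not tie plates to animals; p-values here therefore reflect variation among 6 libraries, and that variation may be technical. Deviations from the sort mean correlated at 0.46, 0.31 and 0.32 for same-numbered libraries and at -0.36 to 0.08 for others. The labels put both sorts of replicates 2 and 3 on 1 plate. On both grounds the numbers were taken as pairs. Deviations of a gene cancel within a sort, so these correlations are not independent of each other. Replicate 1 was on separate plates, so its pairing rests on the shared number and on these correlations, from the same data as the blocked fit. Levels within wells are per 10000 transcripts, and intervals for single libraries are exact 95% intervals (Poisson for CPM, Clopper-Pearson for shares).

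The 6 members and all lists (11 of cell type markers, 5 by role) were chosen with earlier results of these data known. Named are the members, role-list genes called in the fit without or with the block, the 4 genes of each role list with the most transcripts, and the 5 genes most like each member. Well limits, low-quality wells, stromal-marker wells, thinning, libraries left out and other scalings were tried as alternatives.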

Additional observations from a re-analysis of the deposited data

Results flagged for a closer look

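Wells under 1000 transcripts, which no comparison above uses, also held the members, above the 3 counts that a count of 0 allows. In the 1193 such wells Cxcl12 had 188.4 transcripts in CD44- replicate 1, 73 in CD44- replicate 3, 41 in CD44- replicate 2, 45.06 in CD44+ replicate 3 and 30.02 in CD44+ replicate 2. Over all of these wells Kitl had 27 transcripts, Lepr 27, Cxcl14 42.02, Gas6 50 and Vcam1 15, between 5.98% (Cxcl12) and 7.51% (Kitl) of each gene's transcripts in all wells. In CD44- replicate 1, 7 of these wells had 4 or more stromal markers. The well with the most Cxcl12 among them, in CD44- replicate 1, held 38.2 of it in 827 transcripts, with 5 Cxcl14 and 6 Gas6 transcripts and 7 stromal markers. A CD44+ replicate 3 well of 217 transcripts held 23.1 Cxcl12 transcripts, 10.6% of its total. In the row order assumed, it lies in column 24 of its plate and the CD44- replicate 1 well in column 22. On the plate of CD44+ replicate 3, columns 22 to 24 had 59.4 times lower spike-ins than the others, so what that well held cannot be told.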

How the results depend on the processing

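Without a test, all 6 members stayed higher in CD44- under the 12 alternatives run for each, except Kitl without wells of 4 or more stromal markers (log2 ratio of mean CPM, CD44+ to CD44-, 0.68). In that setting the log2 ratio was -0.65 for Lepr, -2.32 for Gas6 and -0.13 for Vcam1. Thinned to 1000 transcripts it was -3.16 for Cxcl12, -3.19 for Kitl, -1.61 for Lepr, -3.96 for Cxcl14, -2.69 for Gas6 and -4.41 for Vcam1. Leaving out 1 library gave -5.26 to -3.70 for Cxcl12, -4.68 to -3.77 for Kitl, -3.53 to -2.29 for Lepr, -7.06 to -4.07 for Cxcl14, -4.70 to -3.09 for Gas6 and -4.97 to -3.29 for Vcam1. The 10 highest wells held 71.1% of Cxcl12 with wells from 500 transcripts and 75.8% from 2000. After thinning, 8 wells had all 6 members, as fewer transcripts were read.

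The edgeR counts depend on the setting, and the cause was not tested. Genes lower in CD44+, over all genes, went from 24 to 40 (wells from 500 transcripts), 47 (without low-quality wells) and 160 (shared plates only); those of the role lists went from 2 to 4, 4 and 14. The replicate block gave 113 and 7, DESeq2 250 and 15, and no filter on genes 334 and 19. Both counts were 0 without the stromal-marker wells, where 1703 genes and not 2463 were tested (240 at an unadjusted p under 0.05). They were 0 with the block in addition, an alternative added after seeing the data (368 of 1703 at that p). After thinning they were 0 among 500 genes tested (48 at that p). Csf1, Runx2, Spp1, Vegfa, Ebf3, Epas1 and Stat3 were not testable in these settings. The 0 of the role lists therefore says nothing of them. Leaving out 1 library gave 0 to 108 genes and 0 to 12 of the role lists; 0 came from each library except CD44- replicate 1. Genes higher in CD44+ went from 1 to 5 without low-quality wells, 43 with the block, 35 with DESeq2 and 142 with no filter on genes, to 0 without stromal-marker wells (with or without the block) and after thinning, and to 0 to 7 without 1 library. No filter on genes and DESeq2 test all 16924 genes with a count, and the median log2 difference of all genes was 0.41 and -0.44 there, against -0.04. The block changed the calls of Spp1, Vegfa, Ebf3, Epas1 and Stat3 and of no other gene of the role lists.

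Depth limits what can be said of Kitl outside the stromal-marker wells, where CD44- had 1 transcript in all. The same holds for Lepr, Cxcl14 and Vcam1 outside the marker wells, and for CD44+ replicate 1, which has the fewest CD44+ transcripts.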
